A study of Mus musculus with 6 samples.

Results

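Of the 6812 regions on chromosomes 1 to 19 and X at which TERT signal was called common to BIBR1532-treated and vehicle-treated mouse neurons, 1325 (19.5%) were distal. A region was taken as distal when its authors' annotation placed it more than 5000 bp from the nearest transcription start site (TSS) and in an intron or between genes. The members were thus selected on the authors' signal, through the common list, and on annotated distance and class, and those values are given below as description. Another 5281 common regions (77.5%) lay within 5 kb of a TSS, and 206 (3.02%) were distant but in other classes. The same rule took 11303 of 16149 regions (70%) from the list with higher signal in the BIBR1532 pool and 13456 of 18554 (72.5%) from the list with higher signal in the vehicle pool. All 3 lists together held 41515 regions on these chromosomes.

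The cells were cortical and hippocampal neurons cultured from C57BL/6 embryos at embryonic day 15 to 18, with no genetic change named. BIBR1532, a small-molecule inhibitor of telomerase, was given to 3 samples at 2 µM for 24 h, and 3 samples received the DMSO vehicle for 24 h (1 label field calls the vehicle samples untreated). Libraries were made by CUT&Tag with an antibody against TERT, and no control antibody library was analysed here. The lists were made from the combined libraries of each condition, so each condition is 1 measurement, and the BIBR1532 direction is likely, from the order of the conditions in the list names, but not stated outright.

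TERT is the protein subunit of telomerase, which copies the telomeric repeat from its RNA partner Terc onto chromosome ends. In CUT&Tag an antibody brings a transposase to its target, which cuts and tags the DNA nearby. Regions far from a start site can hold enhancers, start sites of transcripts that an annotation leaves out, or repeats with promoters of their own, such as young LINE-1 elements.

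The first feature of these regions is that some lay on start sites that the authors' annotation did not use. RefSeq promoter windows, 250 bp before to 50 bp after a gene start on GRCm38.p6, overlapped 49 members. They made up 51 windows of 49 genes, of which 34 were long noncoding RNA genes and 15 protein-coding, and 23 members spanned the start itself. In 4 members the window belonged to the gene that the annotation had named as nearest from another start: Evi5 (a GTPase-activating protein), Eif2ak1 (the heme-regulated kinase of translation factor eIF2), Ip6k2 (an inositol hexakisphosphate kinase) and Dhcr7 (the last enzyme of cholesterol synthesis). The other windows belonged to further genes, such as Opcml (a neuronal cell adhesion protein), Gatad2b (a subunit of the NuRD complex) and the long noncoding RNA D130051D11Rik, whose regions had been assigned to Spata19, Mir7012 and Wnt7b. These 7 windows are printed 5′ to 3′ on the gene's strand, with the bases inside the shared region in capitals, to show where the regions lie relative to the start, which is after base 250 of each. The shared region reaches past the start in the Evi5, Opcml, Gatad2b and D130051D11Rik windows, and ends before it, within the upstream bases, in those of Eif2ak1, Ip6k2 and Dhcr7. They were chosen after their values were seen.
Evi5: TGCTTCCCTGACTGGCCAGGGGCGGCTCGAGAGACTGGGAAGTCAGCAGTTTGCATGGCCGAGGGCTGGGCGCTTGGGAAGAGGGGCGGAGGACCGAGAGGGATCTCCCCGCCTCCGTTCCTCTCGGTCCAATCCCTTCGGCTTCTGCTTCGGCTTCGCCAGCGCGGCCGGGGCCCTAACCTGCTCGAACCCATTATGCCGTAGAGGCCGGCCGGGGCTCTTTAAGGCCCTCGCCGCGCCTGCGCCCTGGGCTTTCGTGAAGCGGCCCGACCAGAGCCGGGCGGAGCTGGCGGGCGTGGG
Eif2ak1: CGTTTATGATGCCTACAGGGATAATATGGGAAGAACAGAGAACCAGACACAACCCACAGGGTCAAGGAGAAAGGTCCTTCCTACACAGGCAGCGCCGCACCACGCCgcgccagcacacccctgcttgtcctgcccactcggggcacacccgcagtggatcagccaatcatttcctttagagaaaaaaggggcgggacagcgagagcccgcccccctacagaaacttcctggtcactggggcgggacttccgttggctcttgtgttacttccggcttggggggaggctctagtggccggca
Ip6k2: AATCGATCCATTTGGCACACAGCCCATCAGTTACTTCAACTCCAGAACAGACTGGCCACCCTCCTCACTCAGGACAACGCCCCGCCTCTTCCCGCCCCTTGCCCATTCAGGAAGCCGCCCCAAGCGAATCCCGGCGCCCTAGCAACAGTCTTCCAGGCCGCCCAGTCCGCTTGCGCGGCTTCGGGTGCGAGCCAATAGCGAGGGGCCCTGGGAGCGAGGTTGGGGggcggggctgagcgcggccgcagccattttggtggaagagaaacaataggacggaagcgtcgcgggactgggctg
Dhcr7: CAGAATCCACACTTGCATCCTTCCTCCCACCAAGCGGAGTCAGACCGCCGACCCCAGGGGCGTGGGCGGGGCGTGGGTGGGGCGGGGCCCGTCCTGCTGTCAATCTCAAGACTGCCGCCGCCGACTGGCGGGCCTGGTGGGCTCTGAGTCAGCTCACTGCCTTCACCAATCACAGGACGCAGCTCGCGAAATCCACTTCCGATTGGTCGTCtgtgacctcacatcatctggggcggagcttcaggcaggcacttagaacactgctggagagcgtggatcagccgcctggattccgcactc
Opcml: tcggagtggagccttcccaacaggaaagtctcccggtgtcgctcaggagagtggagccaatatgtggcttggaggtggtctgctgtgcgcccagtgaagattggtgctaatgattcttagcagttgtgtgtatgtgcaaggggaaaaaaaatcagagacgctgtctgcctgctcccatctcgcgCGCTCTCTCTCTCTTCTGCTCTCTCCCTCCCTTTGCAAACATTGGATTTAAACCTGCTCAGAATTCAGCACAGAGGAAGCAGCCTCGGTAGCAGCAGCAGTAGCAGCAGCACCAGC
Gatad2b: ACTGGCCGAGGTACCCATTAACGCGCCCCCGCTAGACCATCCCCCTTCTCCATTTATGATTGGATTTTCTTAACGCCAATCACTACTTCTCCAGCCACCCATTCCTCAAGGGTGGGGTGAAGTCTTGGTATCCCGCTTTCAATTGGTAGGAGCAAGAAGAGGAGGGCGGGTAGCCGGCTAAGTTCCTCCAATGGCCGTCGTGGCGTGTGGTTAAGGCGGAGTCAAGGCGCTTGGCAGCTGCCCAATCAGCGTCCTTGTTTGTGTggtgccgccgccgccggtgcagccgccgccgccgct
D130051D11Rik: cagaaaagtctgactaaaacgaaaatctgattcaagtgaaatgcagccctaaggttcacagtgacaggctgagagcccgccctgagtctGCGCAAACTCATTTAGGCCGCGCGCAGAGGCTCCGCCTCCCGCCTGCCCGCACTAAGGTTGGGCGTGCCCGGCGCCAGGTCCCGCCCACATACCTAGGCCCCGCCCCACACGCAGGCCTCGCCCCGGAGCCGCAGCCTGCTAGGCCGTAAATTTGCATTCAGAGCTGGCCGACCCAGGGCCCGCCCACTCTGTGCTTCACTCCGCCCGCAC

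The Evi5 window was chr5:107868999-107869298 on the minus strand, of which 300 bp lay inside the shared region. That of Eif2ak1 was chr5:143817542-143817841 (plus strand, 106 bp inside). That of Ip6k2 was chr9:108783562-108783861 (plus strand, 225 bp inside). That of Dhcr7 was chr7:143829964-143830263 (plus strand, 211 bp inside). That of Opcml was chr9:27791049-27791348 (plus strand, 116 bp inside). That of Gatad2b was chr3:90292931-90293230 (plus strand, 264 bp inside). That of D130051D11Rik was chr15:85634346-85634645 (plus strand, 211 bp inside). The sequences and coordinates are from RefSeq on GRCm38.p6, the assembly of mm10.

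The windows under distal shared regions were intermediate in base composition. Their GC content had a median of 54.7% (n = 51), against 63% for the 3971 windows under shared regions within 5 kb of a TSS and 53% for all 32585 windows. The ratio of observed to expected CpG had a median of 0.471 under distal shared regions, 0.822 under those within 5 kb of a TSS and 0.386 in all windows. The ETS letters CCGGAAG stood on either strand of 11 of 51 windows (21.6%), against 19.7% of those under shared regions within 5 kb and 8.92% of all windows. CCAAT stood in 25 of 51 (49%), against 49.1% and 37.6%, and TATAAA in 4 of 51 (7.84%), against 4.96% and 13.7%. The E-box CACGTG stood in 1 of 51 (1.96%), against 10.5% and 7.2%. The NRF1 motif was in 3 of 51 (5.88%), against 14.2% and 4.62%, and the CRE motif in 1 of 51 (1.96%), against 3.6% and 1.8%. The telomeric repeat TTAGGGTTAGGG was in 0 of 51 windows and in 4 of all 32585 (0.0123%). The matches describe these letters in these windows and do not show binding of a factor.

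**Figure D1:**
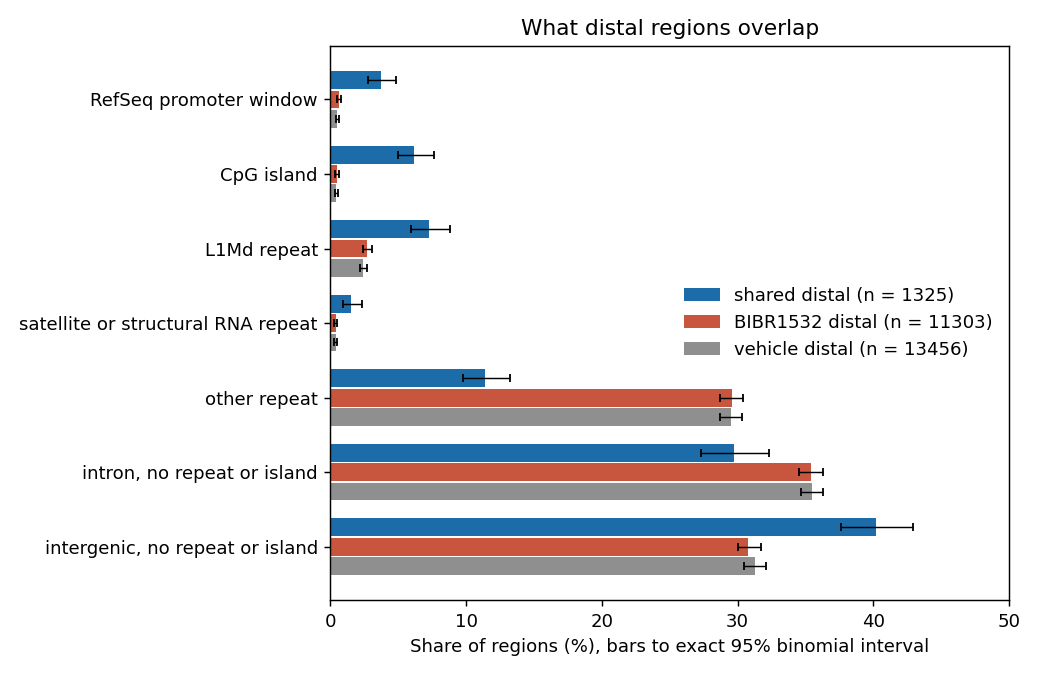
Share of distal regions (horizontal axis, percent) in 7 classes, assigned to the first that applied, for shared, BIBR1532 and vehicle distal regions from top to bottom in each class. Whiskers are exact 95% binomial intervals. Shared regions exceeded both other lists in the promoter window, CpG island, L1Md and satellite or structural RNA classes and also in plain intergenic regions (40.2% against 30.8% and 31.3%), and were lower in other repeats and in plain introns (29.7% against 35.4% and 35.5%).

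CpG islands, stretches rich in unmethylated CpG that mark many promoters, were annotated at 93 shared distal regions (7.02%) and at 120 condition-specific distal regions (0.485%). The odds ratio was 15.5 (95% interval 11.8 to 20.4, adjusted exact p = 1.1e-61). RefSeq promoter windows were likewise found under 49 of 1293 shared distal regions (3.79%), against 137 of 23833 condition-specific ones (0.575%, odds ratio 6.81, interval 4.89 to 9.49, adjusted exact p = 1.2e-21). These and the tests that follow are two-sided Fisher's exact tests on counts of regions, which compare the deposited lists and not the conditions. Benjamini-Hochberg adjustment was over 14 features, or over 13 beyond 50 kb and 7 without repeat-annotated regions. The 3 features added after the data were seen, among them the RefSeq windows, were adjusted separately. Within 1 kb of a RefSeq start lay 91 members (7.04%), against 1.65% of BIBR1532 and 1.29% of vehicle distal regions. Of the 93 island members, 75 were intergenic and 18 intronic. A RefSeq promoter window was overlapped by 11 of them, and 72 lay more than 5 kb from every start listed in the table, which does not list every start that the authors' annotation used. Among regions outside chromosome 18 and over 5 kb from the listed starts, islands made up 72 of 1153 shared ones (6.24%). They made up 80 of 22667 condition-specific ones (0.353%, odds ratio 18.8).

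The widest island members were 903 bp in intron 5 of 6 of Prx, which encodes periaxin of Schwann cell myelin, 311 bp from a RefSeq start, 837 bp at -46.7 kb from 1700073E17Rik and 836 bp at -8.14 kb from Mirlet7a-1, a let-7 microRNA gene. A 619 bp island lay -52.9 kb from Wnt7b, a Wnt ligand, and 148 bp from the D130051D11Rik start. In the shared regions within 5 kb of a TSS that were classed as intron or intergenic (n = 844), 50.9% were islands. Of the distal members 7.02% were (odds ratio 0.0727). Distance from a TSS separates these sets by choice, and 88.5% of the 844 were intronic, so this contrast is description and supports nothing. Over all shared regions within 5 kb the island share was 8.14%. The promoter class lists no island and no repeat for any of its 3533 regions, so that value is not on the same footing.

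Repeats were the second feature, and the classes differed. A repeat was annotated at 20.4% of shared distal regions, against 32.6% of condition-specific ones (odds ratio 0.53, adjusted exact p = 5.1e-21). SINEs, short elements copied by LINE-1 proteins, made up 3.85% against 9.16% (odds ratio 0.397), and LTR elements, remnants of retroviruses, made up 2.42% against 7.93% (odds ratio 0.287), with adjusted exact p of 6.1e-13 and 1.8e-16. The LINE share was 9.96% against 9.84% (odds ratio 1.01, interval 0.843 to 1.22, adjusted exact p = 0.887). It passed the threshold beyond 50 kb of a TSS (16.9% against 12.5%, odds ratio 1.42, adjusted exact p = 0.0101) and without the most frequent score of the condition-specific lists (odds ratio 1.27, adjusted exact p = 0.0228). That score was held by 6327 BIBR1532 (56%) and 8020 vehicle (59.6%) distal regions, so the setting dropped most of the comparison regions. DNA transposons were less frequent (0.453% against 1.43%, adjusted exact p = 0.0023), as were simple repeats (2.11% against 3.63%, adjusted exact p = 0.00398). Beyond 50 kb both missed the threshold, with odds ratios of 0.435 and 0.701 (adjusted exact p = 0.216 and 0.319).

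The LINE share hid a difference in subfamily. L1Md, the mouse LINE-1 families that include still-active copies, made up 96 of 132 LINE members (72.7%), against 632 of 2437 LINE regions (25.9%) among condition-specific ones (odds ratio 7.62, interval 5.14 to 11.3, adjusted exact p = 5.3e-27). L1Md_A accounted for 48 members (3.62% of all), against 108 BIBR1532 (0.955%) and 107 vehicle (0.795%) distal regions. L1Md_T also accounted for 48, against 118 and 133. Of each family, 37 members were intergenic and 11 intronic, and their median widths were 276 bp (L1Md_A) and 231 bp (L1Md_T). The widest shared distal region of all was an L1Md_A element of 4558 bp, 231 kb from 4933427E13Rik, with a score of 0.0126. The sources used here do not say whether reads that match several copies were kept, and the part of such reads in these counts was not tested.

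Satellite and structural RNA repeats made up 20 shared distal regions (1.51%), against 93 condition-specific ones (0.376%; odds ratio 4.06, interval 2.5 to 6.61, adjusted exact p = 1.7e-06). Large-subunit ribosomal RNA sequence (LSU-rRNA_Hsa) was annotated at 8 of them, against 2 BIBR1532 and 2 vehicle distal regions. Major satellite (GSAT_MM), the repeat of mouse pericentromeric heterochromatin, was at 5, against 3 and 0. One of these, near Gm5458, spanned 3130 bp, and 3 others lay within 31.9 kb of Mir101c. These repeats also occur in many copies. With widths of at least 500 bp, which left 92 members, the satellite and structural RNA difference and the SINE difference missed the threshold (adjusted exact p = 0.293 and 0.173), at odds ratios of 4.14 and 0.355.

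Position and shape are given as description. The members lay at a median of 32.9 kb from a TSS, with quartiles at 14.9 and 80 kb and the farthest at 1535 kb, near Slc10a2, the ileal bile acid transporter. BIBR1532 distal regions had a median of 47.8 kb and vehicle ones 48.2 kb. Upstream and downstream members were 630 and 695. Introns held 37.7% of the members, against 49.7% of condition-specific distal regions. Widths had a median of 226 bp (quartiles 170 and 318), against 260 bp in the BIBR1532 list and 254 bp in the vehicle list; 6.94% of the members were at least 500 bp wide, against 18.9% and 17.8%. Chromosome X held 2.79% of the members, against 1.79% (odds ratio 1.57, adjusted exact p = 0.0148). The X difference missed the threshold without repeat-annotated regions (odds ratio 1.45, adjusted exact p = 0.159), with a 2 kb limit (1.43, adjusted exact p = 0.0555) and beyond 50 kb (1.71, adjusted exact p = 0.0839), and turned below 1 at widths of at least 500 bp (0.758, adjusted exact p = 1). Just inside the 5 kb limit were regions of Gpr84 and Slc6a17 at 5003 and -5066 bp, and just outside it were regions of Rn4.5s, Sirt4 and Sesn2 at -4993, -4917 and -4877 bp.

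**Figure D2:**
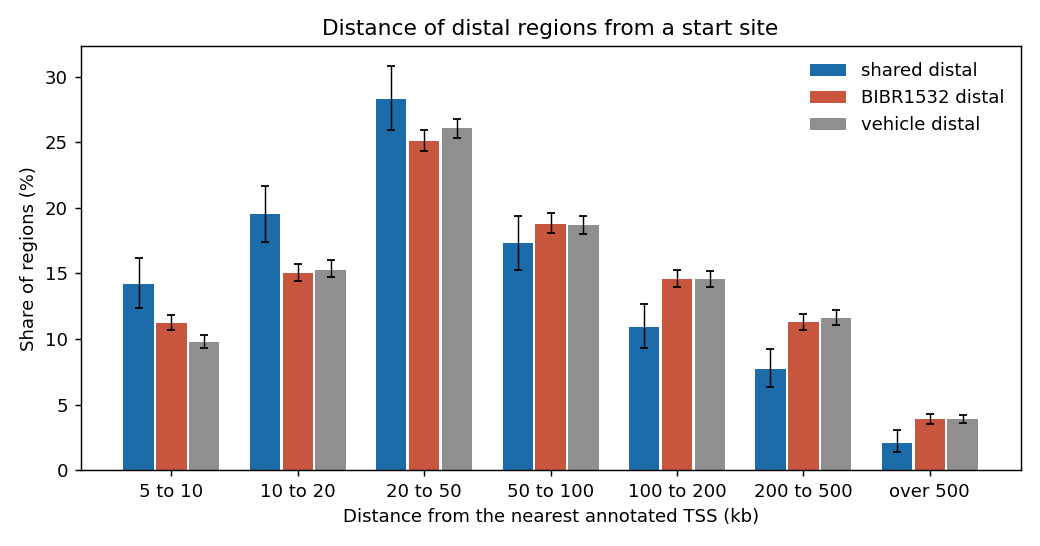
Share of distal regions (vertical axis, percent) by distance from the nearest TSS (horizontal axis, kb), for shared, BIBR1532 and vehicle regions from left to right, with exact 95% binomial intervals. Between 10 and 20 kb lay 19.5% of the shared regions, against 15% and 15.3%, and beyond 500 kb 2.11%, against 3.88% and 3.89%.

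The score, an authors' value for each region, had a median of 0.0817 in the members (0.00191 to 0.864), and 0.117 in shared regions within 5 kb of a TSS. The lowest scores of condition-specific distal regions were 1.09 (BIBR1532) and 1.16 (vehicle), above every member. The score ranges thus did not overlap. The lists may have been cut on this score, so the gap is not a result about the members. The score is not read here as strength of TERT signal, and the ranks and medians below are description. The highest member scores were 0.864 near Tex24, at a B2 SINE, and 0.863 near Eif2ak1, the region on the promoter window printed above. Among the classes the median score was 0.129 in satellite and structural RNA repeats, 0.114 in CpG islands, 0.084 in L1Md, and 0.065 in plain introns. The single most frequent value, 0.0123, was held by 101 members (7.62%).

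A shared region was often next to a condition-specific one or overlapped it in part. Of the members, 412 (31.1%, exact 95% interval 28.6 to 33.7) had one within 1 kb: 225 from the BIBR1532 list, 215 from the vehicle list and 28 from both. Within 5 kb of a TSS the share was 40.7% (2147 of 5281), and the odds ratio of distal to those was 0.659 (Fisher's exact test, p = 1.2e-10). At Gad2, which encodes the GABA-synthesising enzyme GAD65, 3 shared regions of 431, 547 and 251 bp lay across 1.37 kb. Their positions were -33.3 to -32.3 kb from the TSS, and 2 BIBR1532 regions of 220 and 284 bp overlapped them in part. At Steap1, 3 shared regions lay at -32.7, -33.1 and -33.7 kb. Vehicle regions at -32.5 and -34.1 kb overlapped the outer ones in part. The same bases can thus stand in the common list and in a condition-specific list.

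Merging members within 10 kb of each other gave 1248 loci, of which 1177 held 1 region and 71 held at least 2 (148 members, 11.2%). The largest held 3 regions each and lay near Cd28, Egr1, Gad2, Mmp9, Dab1 and Steap1, across 0.753 to 1.42 kb, with no repeat annotated. Near a shared region within 5 kb of a TSS were 55 members (4.15%), at 10 kb or less.

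**Figure D3:**
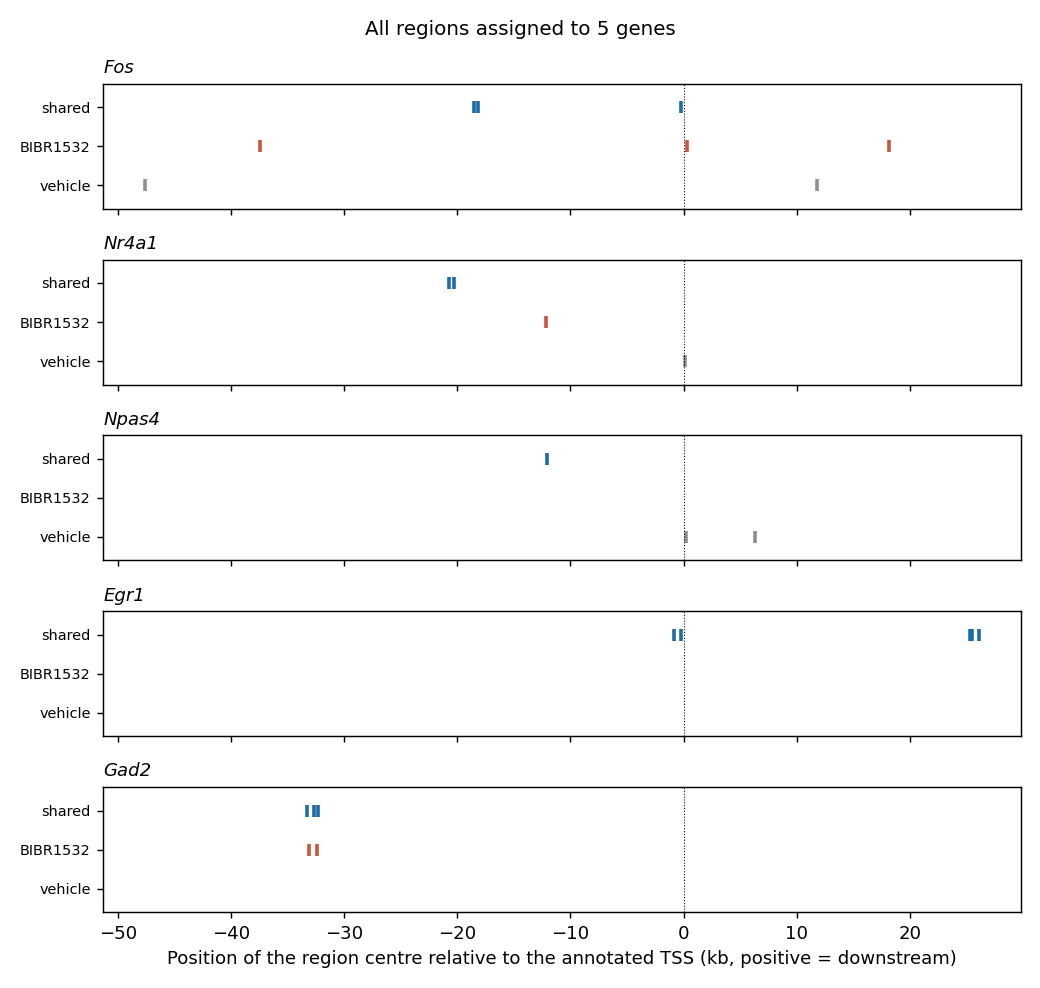
All regions assigned to Fos, Nr4a1, Npas4, Egr1 and Gad2, by centre position relative to the annotated TSS (horizontal axis, kb) and by list (shared, BIBR1532, vehicle from top to bottom). Shared distal regions lay at -18.5 and -18.2 kb from Fos and at 25.3 to 26.1 kb from Egr1.

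Immediate early genes, which neurons switch on within minutes of activity, held 8 members at 4 of 26 genes (15.4%). Of all 21896 protein-coding genes, 935 (4.27%) were nearest to at least 1 shared distal region, against 22.8% for BIBR1532 and 25.7% for vehicle distal regions. The share of genes with a member was larger for axon guidance (22.9%), cell adhesion (22.5%) and glutamate receptors (20%), and 15% or less in the other lists. Of the 52 distal regions assigned to immediate early genes in any list, 8 were shared (15.4%, interval 6.88 to 28.1), against 5.19% over all protein-coding genes. The 8 regions lie at 4 loci and share their loci, and the list was chosen with results known, so this is a description. Fos, a subunit of the AP-1 factor, had 2, at -18.5 and -18.2 kb, of 179 and 234 bp, the first on a CpG island. These lay 3333 and 3603 bp from another RefSeq start. Also assigned to Fos were 2 BIBR1532 and 2 vehicle distal regions. Nr4a1, an orphan nuclear receptor, had 2 at -20.7 and -20.3 kb, and Npas4, a transcription factor induced by activity, had 1 of 366 bp at -12.1 kb. Egr1, a zinc finger factor, had 3, of 207, 163 and 333 bp, between 25.3 and 26.1 kb downstream, and no condition-specific distal region.

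**Figure D4:**
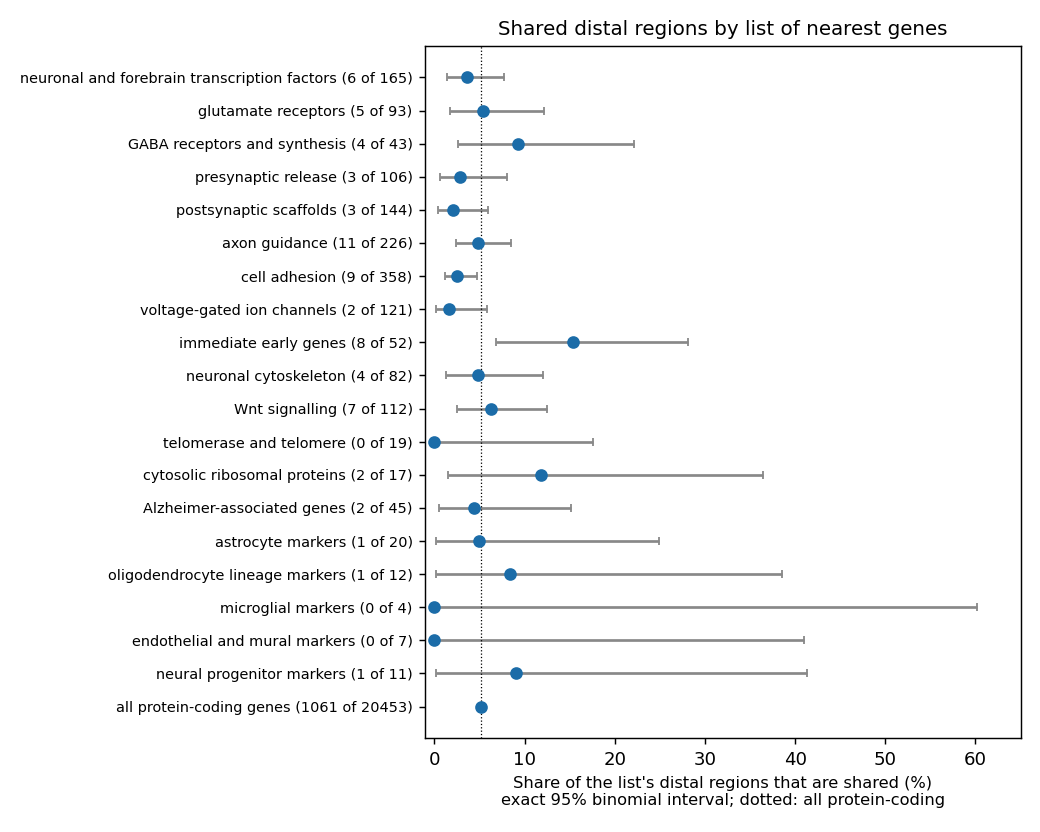
Share of each list's distal regions that were shared (horizontal axis, percent), with exact 95% binomial intervals; the dotted line is the 5.19% of all protein-coding genes. Immediate early genes stood at 15.4% (8 of 52), and cell adhesion at 2.51% (9 of 358).

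Among 8 lists of neuronal contact, signalling and identity, the shared part of distal regions ran between 1.65% and 9.3%, against 5.19% over all protein-coding genes. Cell adhesion genes held 9 members at 9 of 40 genes (9 of 358 distal regions, 2.51%, interval 1.16 to 4.72), among them Cdh11 (-80.1 kb, 715 bp) and Pcdh10, a protocadherin, in intron 3 of 4. Axon guidance genes held 11 at 8 of 35 genes (11 of 226 distal regions, 4.87%), with 2 each at Sema6d, Robo1 and Ephb2. Glutamate receptor genes held 5 at 5 of 25 genes (5 of 93 distal regions, 5.38%). The Grik2 and Gria2 members were L1Md elements and the Grm4 member, at -10.1 kb, was a CpG island. GABA genes held 4 at 2 of 17 genes (4 of 43 distal regions, 9.3%), 3 of them at Gad2. Neuronal and forebrain transcription factors held 6 at 6 of 40 genes (6 of 165 distal regions, 3.64%), including Sox4 at -5.4 kb.

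Wnt signalling genes held 7 members at 6 of 40 genes (7 of 112 distal regions, 6.25%), 2 of them at Wnt11 (-19.9 and -19.2 kb) and 1 at Wnt7b. Within the range given above, presynaptic release genes held 3 at 2 of 31 genes (3 of 106 distal regions, 2.83%), among them Nrxn3. Postsynaptic scaffolds held 3 at 3 of 24 (3 of 144, 2.08%) and ion channels 2 at 2 of 34 (2 of 121, 1.65%). Neuronal cytoskeleton genes held 4 at 4 of 29 (4 of 82, 4.88%), among them Map2, a dendritic microtubule protein, in intron 2 of 13. Over all protein-coding genes the shared part was 5.19%. Ribosomal protein genes held 2 at 2 of 36 (5.56% of genes, against 4.27% of all protein-coding genes, and 2 of 17 distal regions, 11.8%). Alzheimer-associated genes held 2 at 2 of 22 (9.09% of genes, and 2 of 45 distal regions, 4.44%): Ptk2b, and App in intron 2 of 15. Telomerase and telomere genes held 0 members at 22 genes, against 9 BIBR1532 and 10 vehicle distal regions, and 0 of 19 allows a shared part of up to 17.6% (exact interval). Tert, Myc, Ctnnb1 and Bdnf had no distal region in any list, Terc had 0 shared, 1 BIBR1532 and 1 vehicle, and Mapt 0, 3 and 0. Markers of other cells in such cultures were taken as lists of 10 genes each. Astrocyte genes held 1 member (Slc1a2, 1 of 20 distal regions, 5%), and oligodendrocyte genes 1 (Mog, 1 of 12, 8.33%). Neural progenitor genes held 1 (Mki67, 1 of 11, 9.09%), microglial genes 0 of 4 and endothelial and mural genes 0 of 7. One gene of 10 is 10%, against 4.27% of all protein-coding genes. The exact intervals of the shared part reached 24.9% to 60.2%, so these counts do not tell which cells were present.

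The 1325 members were assigned to 1161 genes, 1025 of them with 1 member. Asrgl1, an asparaginase gene, had 5, of which 2 lay at -7.81 and -8.15 kb, 2 at -148 kb and 1 at -191 kb. The 2 at -148 kb lay 11442 and 11693 bp from another RefSeq start, and that at -191 kb 54720 bp from one. The count for Asrgl1 thus rests on the authors' assignment. Ntrk2 and Sox1ot had 4 each. Ntrk2 encodes TrkB, the receptor of BDNF, and its 4 regions, of 152 to 283 bp, lay in introns 13, 14 and 16 of 17. They lay 204 to 285 kb from the annotated TSS, but 18142 to 62499 bp from a RefSeq start. Counted by the gene whose intron held the region, 445 genes held 499 members, and the host was the nearest gene for 329 and another gene for 170. Pde4d, a cyclic AMP phosphodiesterase, held the most, with 7 in introns 1, 3, 7 and 8 of 16, of which 5 had been assigned to Mir582 or Mir1904. Of the 935 protein-coding genes with a member, 739 (79%) also had a condition-specific distal region, against 35.5% of all 21896 protein-coding genes (7783). Gene length was not taken into account.

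The BIBR1532 and vehicle distal regions did not differ in any of the 14 features by the adjusted test (0 of 14, Fisher's exact test, adjusted p = 0.917 for all, and 0 with an unadjusted p below 0.05, the smallest being 0.0761), so both lists formed the comparison above.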

How the data were processed

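TERT CUT&Tag was made from 3 BIBR1532 and 3 vehicle samples. Per the submitters' processing notes, the tools were MACS2 2.1.2, Bowtie2, Picard and CASAVA 1.8 and the build mm10, with no role given. The authors deposited 3 lists of regions made from pooled libraries, annotated with annotatePeaks.pl on mm10 per the file headers. The score of each region is the authors' deposited value, and the scaling of the pools and the treatment of reads with several matches were not given in the sources used here. Both condition-specific lists were decoded from UTF-7. Depth per sample is unknown, and intervals cover counting error only: shares have exact (Clopper-Pearson) intervals and odds ratios normal-approximation (Wald) ones, at 95%.

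Features were compared by two-sided Fisher's exact tests with Benjamini-Hochberg adjustment. RefSeq promoter windows (GRCm38.p6) were matched by position, on the chromosomes their table holds. Chromosome 18, with 32 members, is not among them, and its regions were left out wherever RefSeq starts were used. Of 1161 gene IDs, 1159 matched RefSeq, as did all 467 genes of 19 lists. The members and lists were chosen with earlier results of these data known. Regions named were the 10 widest outside and 5 widest inside repeats, the 5 highest scoring, the 5 farthest, 3 at each side of the distance limit, the genes with most members, up to 4 genes a list, and Tert, Terc, Myc, Ctnnb1, App, Mapt and Bdnf; some items that this rule takes are left out of the text. Other names, the 7 printed windows and the plotted loci were chosen after their values were seen. The Fisher's test script was tested on simulated data. Versions were scipy 1.17.1, statsmodels 0.14.6, pandas 2.3.3, numpy 2.4.6, matplotlib 3.10.9 and Python 3.11.15.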

Additional observations from a re-analysis of the deposited data

Results flagged for a closer look

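Regions outside chromosomes 1 to 19 and X were not used in any comparison: 30 in the BIBR1532 list (4 on chromosome Y and 26 on unplaced contigs), 31 in the vehicle list (8 and 23), and 15 in the common list, all 15 on unplaced contigs. No annotated distance was given for the regions on contigs, and no control antibody library was analysed here to set a background.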

How the results depend on the processing

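No paired analysis was possible because the lists hold pooled libraries with no replicate values, and for the same reason no replicate could be left out. The number of shared distal regions became 504 beyond 50 kb, 781 at widths of at least 200 bp and 92 at 500 bp or more. Of the 14 features, 3 (intron and both distances) restate class and distance, which the choice of members used, and their tests support nothing. Of the other 11, 8 passed with all regions, 3 at 500 bp or more (6 of 14 with those 3), and 1 of the 4 that could be tested without repeat-annotated regions (4 of 7). Fewer regions were tested in each of these. The LINE odds ratio fell below 1 with a 2 kb limit (0.96), with condition-specific scores of at least 3 (0.991) and with distances to RefSeq starts (0.988), but passed the threshold above 1 beyond 50 kb (1.42) and without the most frequent condition-specific score (1.27). Beyond 50 kb that of first introns was 0.939, and at 500 bp those of chromosome X and protein-coding nearest genes were 0.758 and 0.736. With distances to RefSeq starts first introns passed at 1.78 and protein-coding nearest genes at 1.16, and protein-coding nearest genes also at 200 bp (1.34). Simple repeats missed the threshold at 200 bp (adjusted exact p = 0.0781), and at 500 bp so did DNA transposons (0.473) and simple repeats (0.568). The cause of these changes was not tested. The CpG island odds ratio against shared regions within 5 kb of a TSS was 0.0727 within the intron and intergenic classes. That value is description, because the choice of members used distance. Under all alternatives run, the odds ratios against condition-specific distal regions kept their direction and threshold for CpG islands (8.2 to 163), RefSeq windows (4.78 to 9.35), L1Md among LINEs (7.04 to 23.8), repeats (0.495 to 0.729) and LTR elements (0.102 to 0.333). The lowest values for CpG islands and RefSeq windows were those without the most frequent condition-specific score. Alternatives were also added after the data were seen, and 8 of those 11 features passed in each. Outside chromosome 18, 1153 members lay over 5 kb from a start in both annotations. Over 1 kb from any condition-specific region lay 913 of all members. Sequence content of the regions was not run because no genome was given. Depth cannot be read from pooled lists, so it sets an unknown limit on absent regions.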
